A study of Mus musculus with 16 samples.

Results

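The comparison described here is the interaction of neonatal genistein with adult dexamethasone in the mouse uterus: the dexamethasone effect after neonatal genistein minus the dexamethasone effect in controls. It uses all 16 arrays of the 16 in the series, 4 for each of 4 groups, and no array was chosen by a measured value. On each of postnatal days 1 to 5, pups were dosed either with genistein at 50 mg/kg, which is a plant estrogen from soy, or with 20 µl of the corn oil it was carried in. The series design names corn oil for the control arm, whereas the sample labels call it saline, and it is called the control arm here. All 4 groups then lost their adrenals and ovaries at 6 weeks of age, so that no group kept its own source of corticosterone or ovarian estrogen from those organs. At 8 weeks the mice were injected with 1 mg/kg dexamethasone, a synthetic glucocorticoid, in saline or with 100 µl of saline vehicle, and RNA of the entire uterus was taken 4 h later. The labels name no strain, and they do not say whether each array is a separate animal, so a p-value here reflects how arrays varied, which may be technical. In a whole organ, fewer cells of a type and less RNA per cell cannot be told apart. The question is whether the adult response to the hormone depends on what the pup received, and this difference of differences addresses it.

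Glucocorticoids bind the glucocorticoid receptor, encoded by Nr3c1, which moves into the nucleus and acts on genes both by binding paired DNA motifs and by restraining factors such as nuclear factor kappa B. Its direct targets include its own cochaperone Fkbp5, the leucine zipper gene Tsc22d3 and the phosphatase gene Dusp1, which limit receptor or inflammatory signalling. In the uterus the hormone is known for lowering inflammation and for opposing several actions of estrogen. A receptor whose output had been reset in early life could differ in all targets or in some of them, and the interaction measures that gene by gene.

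Levels below are log2 spot signals from which the 75th percentile on the same array was subtracted, and effects are differences of group means on that scale, so 1 is a doubling. A positive interaction means that the dexamethasone effect lay higher after genistein, either as a larger rise or as a smaller fall. Of 24651 genes and unnamed targets tested, 16529 had a symbol. A gene is said to rise or fall where limma gave a Benjamini-Hochberg adjusted p below 0.05, and to respond alike where it was called in the same direction in both arms and the 95% interval of its interaction lay within -1 to 1. The 75th percentile of signal ran from 948 to 2719 over the arrays and the share of spots well above background from 68.9 to 81.3%. The 4 control dexamethasone arrays stood apart on the first principal component, which held 29.7% of the variance, at 65.0 to 102, and all 12 other arrays lay lower, down to -68.3. Genistein vehicle arrays 3 and 4 lay apart from arrays 1 and 2 of that group on the second. Of 12 uterine identity genes 11 were measured, and the progesterone receptor gene Pgr, the estrogen receptor gene Esr1, the patterning gene Hoxa10 and the stromal factor gene Hand2 were well above background on all 4 arrays of each group.

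Promoter sequence is shown for 4 glucocorticoid-induced genes because they carry the letters the receptor is known to read, and they differ in how the 2 arms compared. The element searched was GNACA, then any 3 bases, then TGTNC, which reads the same on both strands, in RefSeq windows from 250 bases before to 50 after the start (GRCm38.p6). It was present for 60 of 13136 tested genes with a window (0.457%), for 4 of 39 genes of the glucocorticoid-induced list (10.3%), for 0 of 187 genes that rose alike and for 0 of 182 that fell alike. At a share of 0.457%, sets of 187 and 182 genes are too small for a count of 0 to set them apart from all genes. The windows below run from 250 bases before to the start, 5′ to 3′, with the element in capitals. They lie at chr14:8309778-8310027 on the minus strand for Fam107a, and on the plus strand at chr4:133240568-133240817 for Map3k6, chr8:94178839-94179088 for Mt1 and chr10:21993640-21993889 for Sgk1. Sgk1 had 6 windows, and 1 that holds the element is shown.
Fam107a: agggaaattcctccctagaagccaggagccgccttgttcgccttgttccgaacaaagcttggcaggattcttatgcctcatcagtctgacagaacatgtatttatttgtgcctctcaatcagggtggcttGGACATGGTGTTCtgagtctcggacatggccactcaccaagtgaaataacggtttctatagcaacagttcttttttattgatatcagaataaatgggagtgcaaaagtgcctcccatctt
Map3k6: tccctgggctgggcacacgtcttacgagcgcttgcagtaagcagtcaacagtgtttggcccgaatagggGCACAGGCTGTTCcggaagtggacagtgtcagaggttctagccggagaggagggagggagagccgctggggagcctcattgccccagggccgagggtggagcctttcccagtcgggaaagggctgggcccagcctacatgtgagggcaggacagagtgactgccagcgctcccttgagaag
Mt1: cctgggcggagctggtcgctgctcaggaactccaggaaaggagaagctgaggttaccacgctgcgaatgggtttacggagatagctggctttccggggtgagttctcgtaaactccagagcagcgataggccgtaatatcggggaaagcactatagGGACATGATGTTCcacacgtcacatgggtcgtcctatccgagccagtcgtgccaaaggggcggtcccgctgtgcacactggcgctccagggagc
Sgk1: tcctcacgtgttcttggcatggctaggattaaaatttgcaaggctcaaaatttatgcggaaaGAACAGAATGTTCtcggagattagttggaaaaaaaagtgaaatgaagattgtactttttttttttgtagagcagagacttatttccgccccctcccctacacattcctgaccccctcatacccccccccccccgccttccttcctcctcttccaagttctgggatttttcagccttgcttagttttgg
Fam107a, an actin-binding gene of the stress response, rose by 4.21 in controls and 5.00 after genistein, with an interaction of 0.79 (95% interval -0.18 to 1.75). Map3k6, a stress kinase gene, rose by 2.61 and 3.12 (interaction 0.51, -0.05 to 1.08), and the metallothionein gene Mt1, which binds zinc, rose by 1.11 and 1.45 (interaction 0.34, -0.64 to 1.32). Sgk1, a kinase gene that regulates sodium transport, rose by 2.38 and 1.51, with an interaction of -0.87 (-1.5 to -0.24). Within this group of 4, then, the point estimate was positive for 3 genes and negative for Sgk1, and no interaction passed the test. A match describes letters in a short window and is not a measured binding site.

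No gene passed the interaction test. Of 24651 tested, 0 (0%) were called by limma, the smallest adjusted p was 0.162, and 749 had an adjusted p below 0.2. At an unadjusted p below 0.05 there were 3830 genes (15.5%), 2439 with a positive and 1391 with a negative interaction. The same model with array weights called 96 genes, 69 positive and 27 negative, with Kcnn1, Grasp, Nckipsd and Wnt4 among them, under weights from 0.28 for genistein vehicle array 3 to 6.19 for genistein dexamethasone array 3. The median interaction over all genes was 0.13, and the median standard error was 0.36, so a typical 95% interval reached 0.77 to each side and 9535 genes (38.7%) had an interval within -1 to 1. Within slide 3 and slide 4, which each hold all 4 groups, the median interaction was 0.08 and -0.03. The other slides were not balanced. Slide 2 held only genistein arrays, namely vehicle array 1 and dexamethasone arrays 1 and 3. Slide 1 held control dexamethasone arrays 2 and 4 but no genistein dexamethasone array, and slide 5 held only control vehicle array 3. Slide and arm were thus partly confounded.

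**Figure D1:**
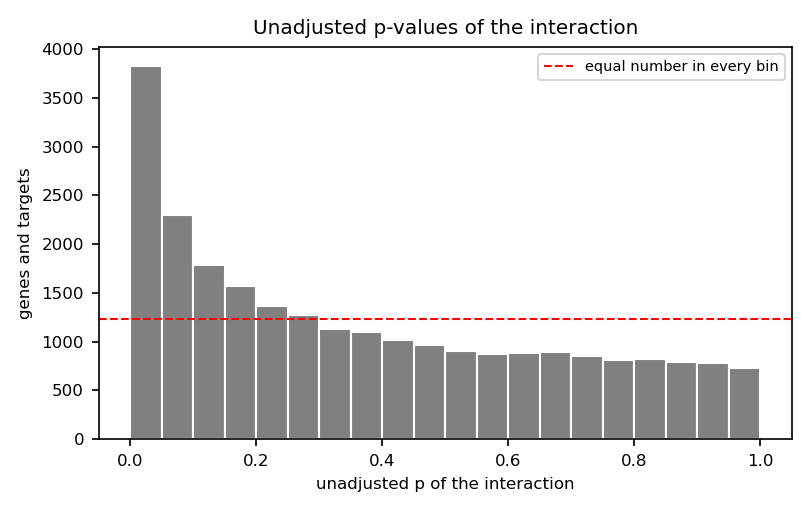
Histogram of the unadjusted p-values of the interaction over 24651 genes and targets, in bins of 0.05, with a dashed line at an equal number in every bin. The lowest bin holds 3830 genes, yet the smallest adjusted p was 0.162.

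The arms differed in how many genes were called. Dexamethasone raised 2082 genes (8.45%) and lowered 3587 (14.6%) in controls, and raised 614 (2.49%) and lowered 689 (2.80%) after genistein. These shares are the background for the counts of each list below. A larger count in one arm is not a test of a difference between arms. In controls only, 4811 genes were called, and 78.3% of these had the same sign after genistein. That share was 63.8% over all genes and 57.8% among genes called in neither arm. Both arms called 856 genes in the same direction, 400 up and 456 down, which is 15.1% of the calls in controls and 65.7% of those after genistein. Among these 856, the effect was larger after genistein for 428 and smaller for 428. This set required a call in both arms, which removes genes with a weak effect in either arm. The even split therefore cannot show how response size compared between the arms. Grasp and Nckipsd alone were called in opposite directions. Across all genes the effects in the arms, which share no arrays, had a Pearson r of 0.40 and a Spearman rho of 0.38. Genes are not independent replicates.

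**Figure D2:**
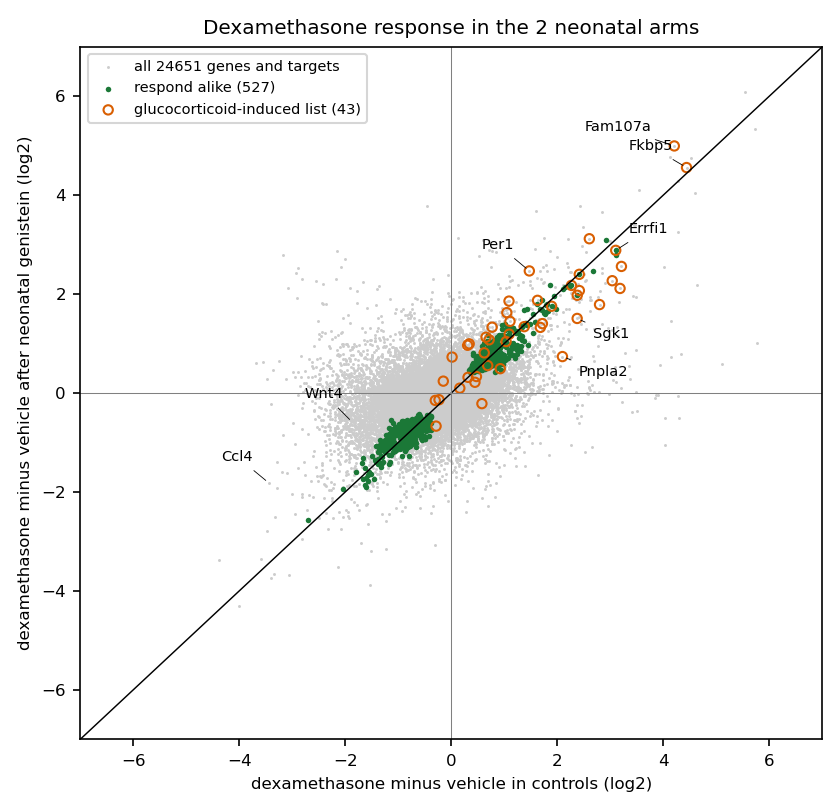
Dexamethasone effect in controls (x axis, log2) against the effect after neonatal genistein (y axis, log2) for 24651 genes and targets, with the line of equal effect. Green points are the 527 genes that respond alike, which lie along that line by the rule that chose them, and open circles are the 43 measured genes of the glucocorticoid-induced list, most of which lie near the line on the right.

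The difference between the arms was larger under dexamethasone than under vehicle for most genes. Of the 3830 genes with an unadjusted interaction p below 0.05, 86.5% differed more between genistein and control under dexamethasone than under vehicle, against 64.5% of all genes. The median size of the difference in these genes was 0.80 under dexamethasone and 0.22 under vehicle, but they were selected by the interaction itself. Over all genes it was 0.43 and 0.28. Between genistein and control arrays 1 gene was called under vehicle (0.00406%) and 5654 under dexamethasone (22.9%). The control dexamethasone arrays, which stood apart on the first component, enter the interaction and this comparison alike, and whether their position reflects the treatment or these 4 arrays was not tested. Without control dexamethasone arrays 2 and 3 the second count was 2394.

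Genes that responded alike numbered 527 of 24651 (2.14%), 256 up and 271 down, 469 of them with a symbol. The steepest rises among them were in Errfi1 and Rhob. Errfi1, an inhibitor of the epidermal growth factor receptor, read 1.89, 1.83, 2.11 and 1.83 on the control vehicle arrays and 5.38, 5.23, 4.95 and 4.53 on the control dexamethasone arrays. After genistein it read 1.94, 1.82, 2.19 and 2.07 under vehicle and 4.49, 5.14, 5.13 and 4.80 under dexamethasone. Dexamethasone and vehicle arrays did not overlap in either arm, and the dexamethasone groups overlapped each other. Errfi1 rose by 3.11 (SE 0.19) in controls and 2.89 (SE 0.19) after genistein, an interaction of -0.22 (-0.80 to 0.36). Rhob, a small GTPase gene of the cytoskeleton, rose by 3.10 and 2.80, Tmem252, a membrane protein gene, by 2.67 and 2.46, and Ddit4, an inhibitor of mTOR signalling, by 2.27 and 2.18. Egfr, the receptor that Errfi1 restrains, rose by 0.80 and 0.74, and Adamts15, a proteoglycan-cutting protease gene, by 1.77 and 1.61.

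Tsc22d3 read 2.15, 2.75, 2.89 and 3.05 under vehicle and 4.97, 5.54, 5.00 and 5.00 under dexamethasone in controls. After genistein it read 2.26, 2.15, 2.75 and 2.81 under vehicle and 4.82, 5.17, 4.71 and 4.86 under dexamethasone. The 2 arms were nearly superposed, with rises of 2.42 and 2.40 and an interaction of -0.02 (-0.68 to 0.64). Dusp1, which switches off MAP kinases, read 0.27, -0.09, -0.03 and 0.24 and then 2.60, 2.49, 2.40 and 2.40 in controls, against -0.01, -0.24, 0.34 and -0.11 and then 1.47, 2.40, 2.20 and 1.82 after genistein. Genistein dexamethasone array 1 was the lowest of the 8 dexamethasone arrays, and the interaction was -0.40 (-0.98 to 0.18). Igf1, the growth factor through which the uterus grows under estrogen, read 0.92, 0.53, 1.03 and 0.67 and then 2.72, 2.31, 3.09 and 3.51 in controls, against 0.94, 1.24, 1.13 and 0.96 and then 3.04, 3.11, 3.04 and 3.49 after genistein. It rose by 2.12 and 2.10 (interaction -0.02, -0.68 to 0.64). In the list of insulin, IGF and fuel use, 35 were measured. Of these 10 rose and 3 fell in controls and 7 rose and 0 fell after genistein. Among all genes 8.45% rose and 14.6% fell in controls, and 2.49% rose and 2.80% fell after genistein. In this list 6 responded alike, against 2.14% of all genes. They included the glucose-phosphorylating enzyme gene Hk2 at 1.24 and 0.98 and the kinase subunit gene Pik3r1 at 1.23 and 0.80. The 3 other Pik3r1 probes changed by -0.49, -0.00 and -0.08 in controls, with interactions of 1.02, 0.33 and 0.38, and the mean of the probes in controls was 0.17 (adjusted p = 0.649).

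**Figure D3:**
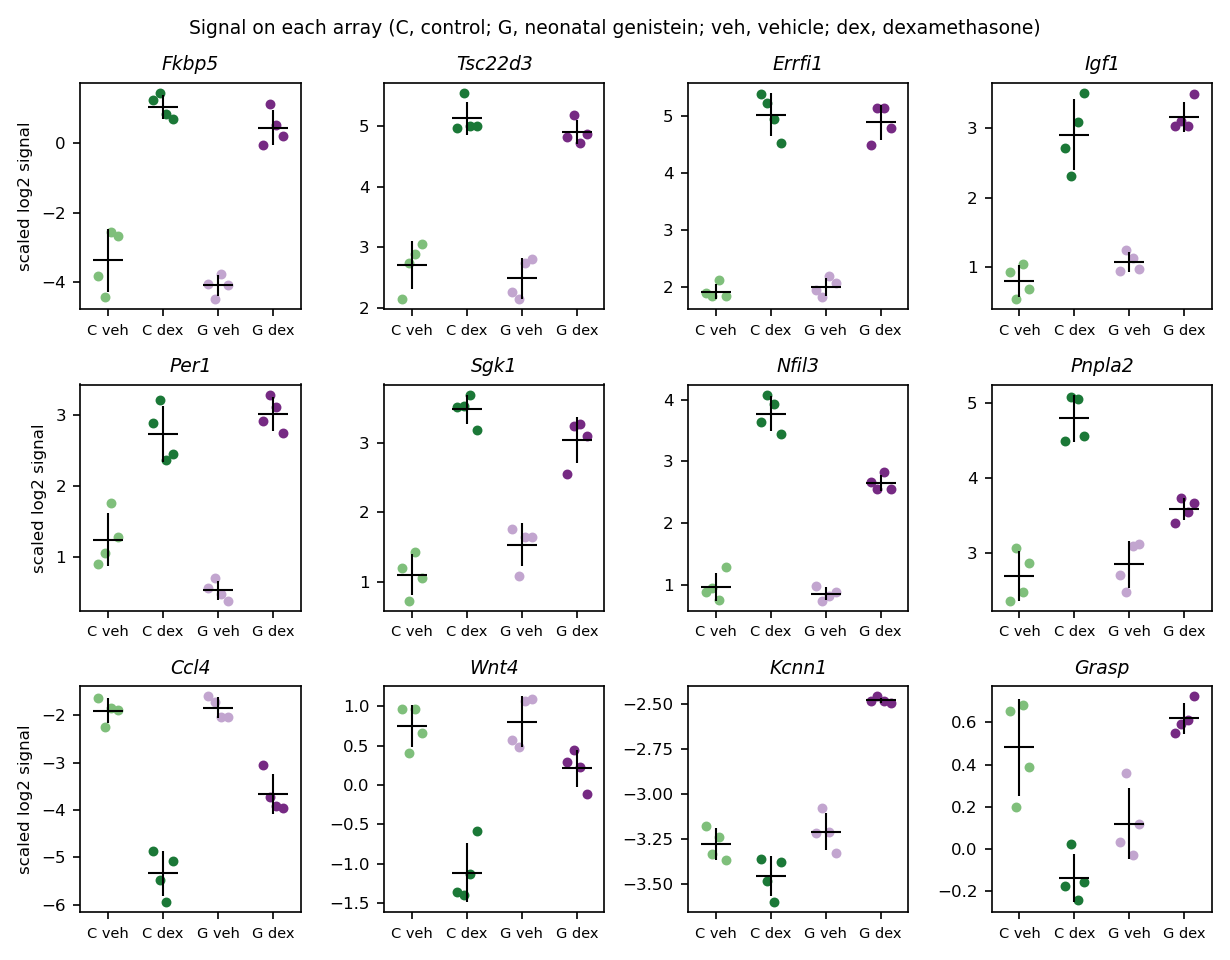
Scaled log2 signal on each of the 4 arrays per group for 12 genes, with the mean (bar) and SD (line); each panel has its own vertical axis. Fkbp5, Tsc22d3, Errfi1 and Igf1 rise to overlapping levels in the 2 dexamethasone groups, whereas Nfil3, Pnpla2, Ccl4, Wnt4, Kcnn1 and Grasp have dexamethasone groups that do not overlap.

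Of 21 receptor and cochaperone genes, 1, the receptor gene itself, met the alike rule. Nr3c1 read 2.02, 2.12, 1.83 and 1.76 under vehicle and 1.58, 1.44, 1.36 and 1.37 under dexamethasone in controls, and 2.10, 1.87, 1.80 and 1.62 and then 1.23, 1.10, 1.02 and 1.04 after genistein. It fell by 0.49 in controls and by 0.75 after genistein and met the alike rule (interaction -0.26, -0.64 to 0.13), although the 4 genistein dexamethasone arrays all lay below the 4 control dexamethasone arrays. Its 3 dimmer probes gave interactions of 0.38, 0.09 and 0.56. Fkbp5 read -3.84, -4.45, -2.56 and -2.67 and then 1.25, 1.45, 0.86 and 0.69 in controls, against -4.06, -4.50, -3.78 and -4.08 and then -0.05, 1.14, 0.54 and 0.21 after genistein. It rose by 4.44 (SE 0.38) and 4.56 (SE 0.38), and the interaction of 0.12 had an interval of -1.04 to 1.28, too wide for the alike rule by a small margin. Hsd11b2, whose enzyme inactivates corticosterone, rose by 3.54 and 4.11 (interaction 0.57, -0.32 to 1.45). Hsd11b1, which regenerates the hormone, changed by 0.69 (adjusted p = 0.0642) in controls and rose by 0.95 (adjusted p = 0.0446) after genistein, with an interaction of 0.26 (-0.51 to 1.04). Over the 21 genes 4 rose and 3 fell in controls and 3 rose and 1 fell after genistein, and the median interaction was -0.02. Among all genes 8.45% rose and 14.6% fell in controls, and 2.49% rose and 2.80% fell after genistein. Hspa4, a heat shock cochaperone gene, had an interaction of -0.84 (unadjusted p = 0.0184), and a dimmer probe gave 0.02.

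Over the whole glucocorticoid-induced list, 43 of 46 genes were measured. In controls 30 rose and 0 fell, and after genistein 27 rose and 0 fell, with 24 in both. The median effect was 1.09 in controls and 1.33 after genistein, and the median interaction was -0.02 against 0.13 over all genes. Interactions were positive for 21 and negative for 22. Cebpd, a transcription factor gene, rose by 1.89 and 1.76, the glutamine synthetase gene Glul by 1.09 and 1.19 and the stress sensor gene Sesn1 by 1.04 and 1.04, all 3 alike. The list was not uniform: 4 members had an unadjusted p below 0.05 with a positive interaction and 4 with a negative. Zbtb16, a common marker of the response, had no probe.

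Per1, a clock repressor and direct receptor target, read 0.91, 1.05, 1.75 and 1.28 under vehicle and 2.87, 3.21, 2.37 and 2.45 under dexamethasone in controls. After genistein it read 0.58, 0.71, 0.48 and 0.39 and then 2.91, 3.28, 3.11 and 2.74. The dexamethasone groups overlapped and the vehicle groups did not, so the interaction of 1.00 (0.35 to 1.64, unadjusted p = 0.0052, adjusted p = 0.194) came with a difference on the vehicle side. Klf9, a transcription factor gene, rose by 1.09 in controls and 1.86 after genistein, with an interaction of 0.77, and its second probe gave 1.57 and 1.83, an interaction of 0.27. Nfil3, a transcription factor gene of the clock and of lymphocytes, read 0.89, 0.95, 0.76 and 1.28 and then 3.63, 4.08, 3.92 and 3.45 in controls, against 0.99, 0.75, 0.82 and 0.89 and then 2.67, 2.56, 2.82 and 2.55 after genistein. Here the vehicle groups overlapped and the dexamethasone groups did not, the rises were 2.80 and 1.79, and the interaction was -1.01 (-1.48 to -0.54, adjusted p = 0.162). Its second probe gave 2.05 and 1.98, an interaction of -0.07. Sgk1 read 1.21, 0.73, 1.43 and 1.05 and then 3.52, 3.53, 3.69 and 3.19 in controls, against 1.77, 1.08, 1.65 and 1.64 and then 2.56, 3.25, 3.27 and 3.10 after genistein. The arms overlapped under vehicle and under dexamethasone. The macrophage scavenger receptor gene Cd163 rose by 3.19 and 2.12, the hypoxia factor gene Hif3a by 3.04 and 2.27 and the tyrosine aminotransferase gene Tat by 3.21 and 2.56; their interactions of -1.07, -0.77 and -0.65 had unadjusted p above 0.05. A dimmer Hif3a probe went the other way, with -2.66 in controls, 0.38 after genistein and an interaction of 3.04, and another gave 1.74 and 1.29.

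**Figure D4:**
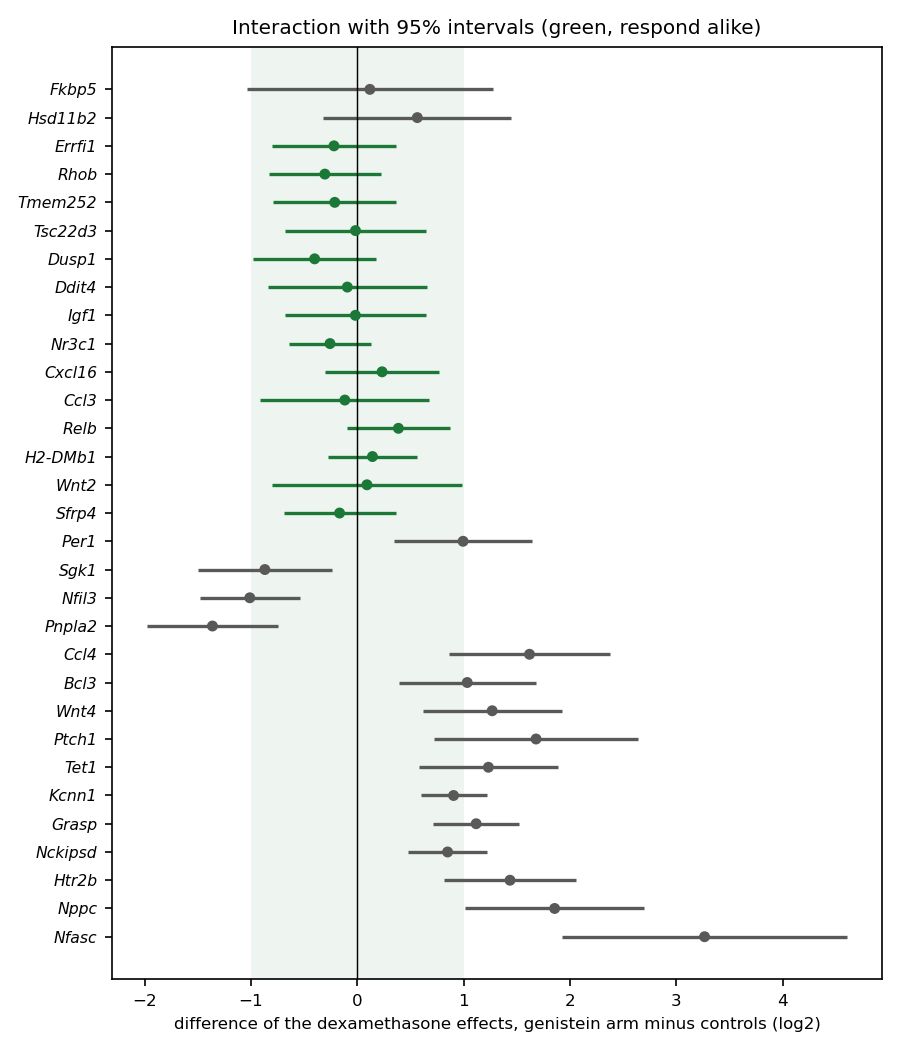
Interaction (genistein arm minus controls, log2) with its 95% interval for 31 genes; the shaded band marks -1 to 1 and green marks genes that respond alike. Per1 and Wnt4 lie to the right of 0 and Nfil3, Sgk1 and Pnpla2 to the left, and none of the 31 passed the adjusted test.

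Inflammatory genes fell in both arms. Of 34 cytokines and chemokines 18 fell and 0 rose in controls and 13 fell and 0 rose after genistein, with 12 in both. The medians were -1.02 and -0.87. The median interaction was 0.24, or -0.00 without control dexamethasone arrays 2 and 3. With normexp background correction it was 1.15, against 0.64 over all genes in that setting. Within slides 3 and 4 it was 0.09 and 0.52. Il1b, the fever-producing cytokine, fell by 3.59 and 3.36 and Cxcl10, a T cell attractant, fell by 2.50 and 2.52, with intervals too wide for the alike rule. Cxcl16, a chemokine that also binds lipoproteins, read 1.20, 0.78, 1.13 and 0.93 and then -0.72, -0.42, -0.39 and -0.44 in controls, against 0.96, 0.98, 1.51 and 1.30 and then -0.28, -0.38, 0.02 and 0.31 after genistein. The genistein dexamethasone arrays lay just above the control dexamethasone arrays without overlap. Cxcl16 fell by 1.5 and 1.27 and still met the alike rule, as did Ccl3, a macrophage chemokine, at -1.14 and -1.26. Ccl4, its close relative, read -1.62, -2.24, -1.84 and -1.89 and then -4.86, -5.48, -5.95 and -5.08 in controls, against -1.60, -1.71, -2.03 and -2.04 and then -3.05, -3.73, -3.92 and -3.95 after genistein. The vehicle groups overlapped, the dexamethasone groups did not, and the falls of 3.44 and 1.82 gave an interaction of 1.62 (0.86 to 2.38, unadjusted p = 0.000404, adjusted p = 0.162). Tnf fell by 1.94 and 1.15, but after genistein its call was lost in 10 of 33 alternative settings and its value turned to 0.36 (adjusted p = 0.599) with normexp background correction. Il33, an alarm cytokine of epithelium, changed by 0.39 and -0.92, neither of which passed (interaction -1.30, unadjusted p = 0.00387).

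Nuclear factor kappa B genes had a median effect of -0.32 in controls and -0.36 after genistein. The sign was the same in both arms for 15 of 17, against 63.8% of all genes. Of 17 measured, 1 rose and 5 fell in controls and 2 rose and 2 fell after genistein, with a median interaction of -0.01. For this and the other lists of this paragraph, the shares over all genes were 8.45% up and 14.6% down in controls. After genistein they were 2.49% and 2.80%. The subunit gene Relb fell by 1.34 and 0.95 and the inhibitor gene Nfkbie fell by 0.99 and 1.06, both alike. Bcl3, a coregulator gene, fell by 1.39 in controls and changed by -0.36 after genistein (interaction 1.03, unadjusted p = 0.00399), and the subunit gene Rela fell by 0.82 in controls and changed by -0.17 (interaction 0.65, unadjusted p = 0.012). Of 31 interferon-stimulated genes 13 fell in controls and 4 after genistein, 4 of them in both, with a median interaction of 0.06; the regulator gene Irf1 fell by 0.94 in controls and changed by -0.38 after genistein. MHC class II genes, which present antigen, fell in both arms: of 12 measured, 9 fell in controls and 5 after genistein, and the peptide-loading genes H2-DMb1 at -1.19 and -1.05 and H2-DMa at -1.12 and -0.95 responded alike. Of 13 neutrophil genes 8 fell in controls and 7 after genistein, 6 in both, including the calcium-binding protein gene S100a9 at -2.82 and -2.95. Retnlg, a resistin-like neutrophil gene, changed by -0.67 in controls and fell by 2.05 after genistein (interaction -1.37, unadjusted p = 0.00275).

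Apol7c, a gene of dendritic cells, had the steepest fall in controls among genes that respond alike. It read -1.61, -1.65, -2.17 and -1.13 and then -4.05, -4.38, -4.79 and -4.16 in controls, against -1.74, -2.10, -1.35 and -1.61 and then -3.82, -5.08, -4.14 and -4.03 after genistein, falls of 2.70 and 2.57 (interaction 0.14, -0.73 to 1.00). Of 28 macrophage and dendritic genes 5 fell and 2 rose in controls and 5 fell and 1 rose after genistein, 4 of the falls in both. Among all genes 14.6% fell and 8.45% rose in controls, and 2.80% fell and 2.49% rose after genistein. Aif1, an actin-binding gene of macrophages, fell by 1.33 and 1.42 and the IgG receptor gene Fcgr1 by 1.80 and 1.61. A second Aif1 probe gave -0.80 and -1.76, an interaction of -0.97. Scimp, an adaptor of MHC class II signalling, fell by 1.57 and 1.77 and also responded alike, but its effect after genistein turned to 0.50 (adjusted p = 0.551) with normexp background correction. Ly6h and the sodium channel subunit gene Scn3b fell alike at -1.64 and -1.85, and -1.67 and -1.74. The other Scn3b probes gave interactions of 0.32 and -0.98. Batf3, a transcription factor gene needed by cross-presenting dendritic cells, fell by 2.13 and 1.22 (interaction 0.91, unadjusted p = 0.00547), and Itgam, an integrin gene of myeloid cells, had an interaction of -1.54 that its second probe gave as 0.02.

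Many lymphocyte genes fell in controls and fewer were called after genistein, a difference in counts that was not tested. Of 33 measured, 1 rose and 16 fell in controls, and 2 rose and 2 fell after genistein. Over all genes 8.45% rose and 14.6% fell in controls, and 2.49% rose and 2.80% fell after genistein. The median was -0.90 in controls and -0.15 after genistein, the median interaction was 0.71, and 27 of 33 interactions were positive, against a median of 0.13 and 14707 positive of 24651 over all genes. Cd7, a T and natural killer cell surface gene, read -1.47, -1.62, -1.34 and -1.73 and then -2.29, -2.39, -2.85 and -2.22 in controls, against -1.35, -1.67, -1.45 and -1.83 and then -1.53, -1.68, -1.46 and -1.53 after genistein. Only the control dexamethasone arrays were low. It fell by 0.90 in controls and changed by 0.03 after genistein (interaction 0.93, 0.45 to 1.40, adjusted p = 0.162). The natural killer receptor gene Ncr1 fell by 1.18 in controls and changed by 0.11, the pore-forming protein gene Prf1 fell by 0.99 and changed by 0.00, the granule gene Nkg7 fell by 1.14 and changed by -0.11, and the T cell genes Cd8a and Zap70 fell by 1.33 and 0.83 and changed by 0.05 and 0.04. Dimmer Cd8a probes gave -1.81 and -1.91 in controls and -0.86 and -0.56 after genistein, with interactions of 0.96 and 1.35. A dimmer Nkg7 probe gave -0.74 and 0.08. Il2rg, the shared interleukin receptor chain gene, fell in both arms, by 1.08 and 0.73. The part of cell number in these values was not tested. The mean level of the 33 genes ran from -3.24 to -2.90 on the control vehicle arrays, -4.32 to -3.76 on the control dexamethasone arrays, -3.31 to -2.80 on the genistein vehicle arrays and -3.53 to -3.05 on the genistein dexamethasone arrays. Within slides 3 and 4 the median interaction was 0.82 and 0.31. Over the alternative settings it ran from 0.38 with quantile normalization to 1.49 with normexp background correction.

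Adipocyte genes rose in controls. Of 22 measured of 26, 13 rose and 0 fell in controls and 1 rose and 0 fell after genistein. The median was 1.63 in controls and 0.11 after genistein, the median interaction was -1.41, and 20 of 22 interactions were negative, 11 of them with an unadjusted p below 0.05. Among all 24651 genes 9944 interactions were negative, 1391 of them at such a p. Adipoq, the adiponectin gene, rose by 3.84 (SE 1.12) in controls and changed by -0.10 after genistein, the fatty acid carrier gene Fabp4 rose by 3.87 and changed by -0.04, the resistin gene Retn rose by 4.27 and changed by -0.05, Cfd, the fat-derived complement factor gene, rose by 3.49 and changed by 0.02, and Mrap rose by 5.77 and changed by 1.01. The mean of the 22 genes was 0.32, -0.70, -0.28 and -1.60 on the control vehicle arrays, 0.09, 2.45, 2.33 and 1.35 on the control dexamethasone arrays, 0.87, 0.19, 0.66 and 1.08 on the genistein vehicle arrays and -0.34, 1.44, 1.34 and 1.20 on the genistein dexamethasone arrays. The groups overlapped within each arm, and the lowest of the 16 arrays was control vehicle array 4. Without control dexamethasone arrays 2 and 3 the median interaction was -0.78, and within slides 3 and 4 it was -0.42 and -1.68. How much of these values is fat tissue carried with the uterus was not tested. Cebpa, a fat and myeloid factor gene, rose in both arms by 0.62 and 0.86. Acaca, the fatty acid synthesis gene, rose by 1.25 in controls and changed by 0.03 (interaction -1.22, unadjusted p = 0.00153), while its 3 dimmer probes gave 0.30, 0.40 and -1.17.

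Pnpla2, the lipase gene that starts fat breakdown and is on both the adipocyte and the glucocorticoid-induced list, read 2.37, 3.07, 2.49 and 2.87 and then 4.50, 5.08, 5.05 and 4.56 in controls, against 2.71, 2.48, 3.10 and 3.12 and then 3.4, 3.74, 3.55 and 3.67 after genistein. Dexamethasone arrays lay above vehicle arrays in both arms, and the 4 genistein dexamethasone arrays lay below all 4 control dexamethasone arrays. It rose by 2.10 in controls and changed by 0.74 (adjusted p = 0.0506) after genistein, with an interaction of -1.36 (-1.98 to -0.75, unadjusted p = 0.000309, adjusted p = 0.162). The second probe gave an interaction of -0.36. In both dexamethasone groups array 1 had the lowest adipocyte list mean, 0.09 in controls and -0.34 after genistein. It also had the lowest Pnpla2 of each of these groups, 4.50 and 3.4. The part of fat tissue in the interaction was not tested.

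Implantation and hedgehog genes leaned positive. Of 33 implantation and decidualization genes 7 rose and 5 fell in controls and 10 rose and 0 fell after genistein, 6 of the rises in both. The median interaction was 0.55, and 10 had an unadjusted p below 0.05 with a positive interaction and 1 with a negative. Positive interactions numbered 23 of 33. Among all 24651 genes 14707 interactions were positive, with a median of 0.13, and 2439 positive and 1391 negative ones had such a p. Of all genes 8.45% rose and 14.6% fell in controls, and 2.49% rose and 2.80% fell after genistein. Wnt4, which the stroma needs to decidualize, read 0.97, 0.41, 0.96 and 0.66 and then -1.35, -1.39, -1.13 and -0.58 in controls, against 0.57, 0.49, 1.07 and 1.09 and then 0.29, 0.44, 0.22 and -0.12 after genistein. The control dexamethasone arrays lay below all 12 others, and the interaction was 1.27 (0.62 to 1.92, unadjusted p = 0.000943, adjusted p = 0.162). Ptch1, the hedgehog receptor and target, read -4.19, -4.14, -4.06 and -3.88 and then -4.99, -5.65, -5.72 and -5.02 in controls, against -4.54, -4.37, -5.84 and -5.86 and then -4.88, -4.41, -4.81 and -4.88 after genistein. Its genistein vehicle arrays 3 and 4 were lower than arrays 1 and 2, and it fell by 1.28 in controls and changed by 0.41 after genistein. The pathway gene Gli1 changed by -1.15 in controls and by 0.76 after genistein, neither of which passed, and the ligand gene Ihh, made by epithelium, changed by 0.36 in controls and rose by 2.03 after genistein. Without genistein vehicle arrays 3 and 4 the list's median interaction was 0.25. Hoxa10 and Hoxa11, which give the uterus its identity, changed by 0.60 and rose by 0.90 in controls and rose by 1.36 and 1.46 after genistein. Gata2 and the growth factor receptor gene Egfr responded alike, and the decidual factor gene Tcf23 rose by 2.48 and 3.36. Bmp7, a secreted signal of the BMP family, fell by 0.63 in controls and changed by 0.31.

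Among Wnt genes the picture was mixed. Of 37 measured, 3 rose and 8 fell in controls and 1 rose and 5 fell after genistein, and all 5 of those falls were shared. Wnt2, a stromal ligand gene, read -0.37, -0.53, -0.64 and -0.35 and then -2.52, -2.30, -2.71 and -2.51 in controls, against 0.11, -0.28, -1.58 and -0.70 and then -2.01, -3.02, -2.70 and -2.51 after genistein, falls of 2.04 and 1.95. The dexamethasone groups overlapped. Sfrp4, a Wnt antagonist gene, fell by 1.33 and 1.5 and Rspo1, a Wnt enhancer gene, fell by 1.05 and 1.15, both alike. Wnt5a, the ligand that shapes uterine glands, fell by 1.27 in controls and changed by -0.35 (interaction 0.92, unadjusted p = 0.0042). Of 22 Hox and patterning genes 2 rose and 5 fell in controls and 2 rose and 0 fell after genistein, with Hoxd9 at -0.82 and 0.10. Beside these 2 lists, 8.45% of all genes rose and 14.6% fell in controls, and 2.49% rose and 2.80% fell after genistein.

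Clock genes, which time the daily cycle, had positive interactions in 19 of 23, against 14707 of 24651 over all genes. In controls 5 rose and 4 fell, and after genistein 7 rose and 0 fell. The shares over all genes were 8.45% and 14.6% in controls and 2.49% and 2.80% after genistein. The median interaction was 0.40, or 0.21 without genistein vehicle arrays 3 and 4, against 0.13 over all genes. Clock itself rose alike at 0.55 and 0.57, and Per2 rose by 0.77 and 1.33, although a dimmer probe of Per2 went the other way in controls, with an interaction of 1.72, and the mean of its probes there was -0.37. The repressor gene Nr1d1 fell by 1.70 in controls and changed by -0.57 after genistein, the output factor gene Dbp fell by 1.39 and changed by -0.59, and Bhlhe41, a repressor gene, fell by 1.09 and changed by 0.10 (interaction 1.19, unadjusted p = 0.00354). Time of day at injection is not given in the labels.

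**Figure D5:**
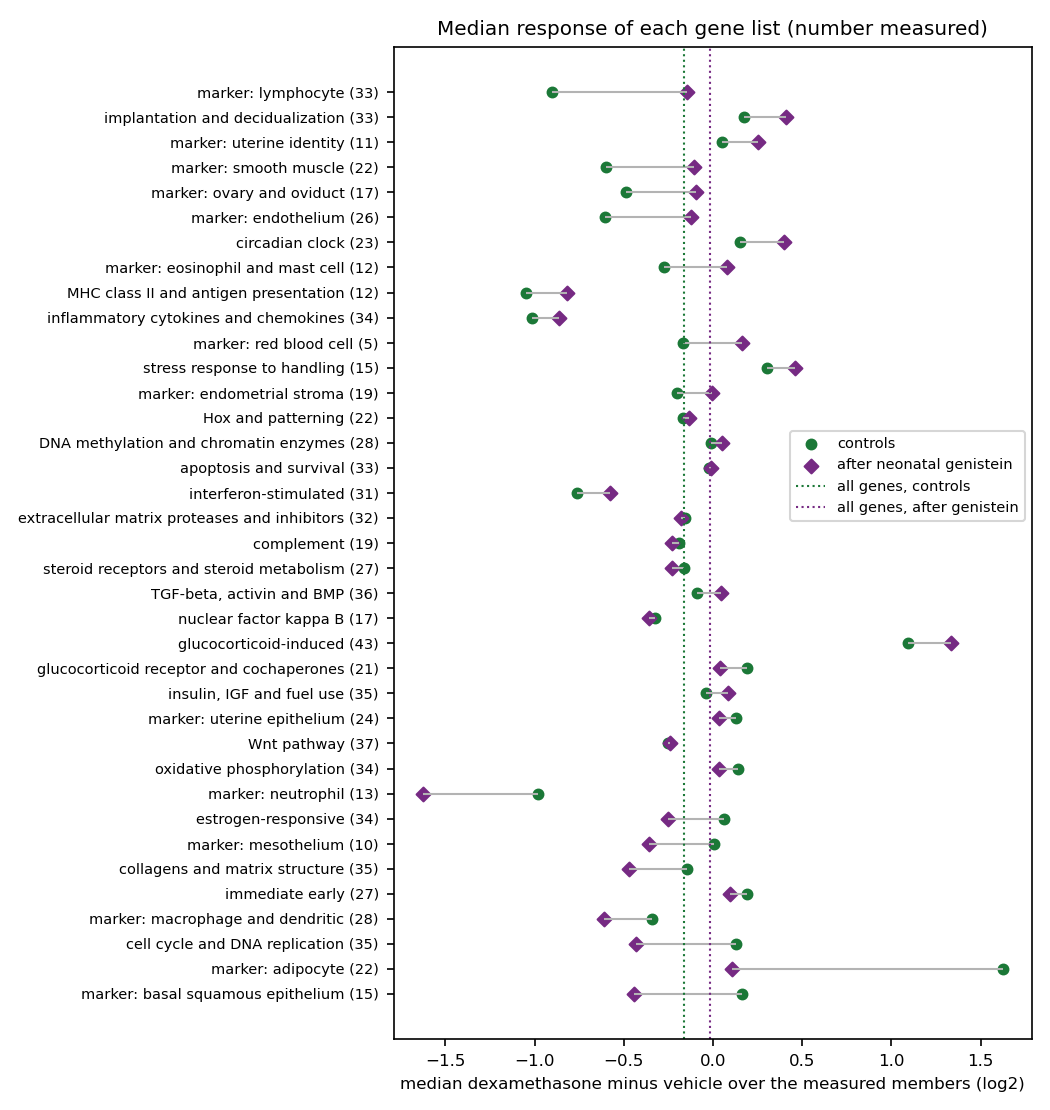
Median dexamethasone effect (log2) over the measured members of 37 gene lists, in controls (circles) and after neonatal genistein (diamonds), ordered by median interaction, with dotted lines at the medians of all genes. Lymphocyte genes have the highest median interaction, adipocyte and basal squamous genes the lowest, and the glucocorticoid-induced list lies far to the right in both arms.

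Cell cycle genes were barely called in either arm but leaned the same way. Of 35 measured, 2 rose in controls and 0 were called after genistein, while 33 of 35 interactions were negative and the median was -0.61. Among all 24651 genes 9944 interactions were negative and the median was 0.13. Mcm2, a replication helicase gene, read 0.79, 0.94, 0.09 and 0.69 and then 1.5, 1.08, 1.89 and 2.02 in controls, against 0.89, 0.77, 1.82 and 1.47 and then 0.80, 0.57, 0.96 and 1.43 after genistein. Genistein vehicle arrays 3 and 4 were its highest vehicle arrays, and it rose by 0.99 in controls and changed by -0.30 (interaction -1.29, unadjusted p = 0.00615). Ccne2, the other called gene, a cyclin, rose by 1.26 and changed by 0.50, and E2f1, which drives S phase genes, had an interaction of -1.04. The members are transcribed together in dividing cells and so are not separate observations. Without genistein vehicle arrays 3 and 4 the list's median interaction was -0.22.

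Among vessel markers, falls were called in controls for more than the 14.6% seen over all genes. Of 26 endothelial genes 1 rose and 12 fell in controls and 1 rose and 2 fell after genistein. Positive interactions numbered 23 of 26, against 14707 of 24651 over all genes. Their median was 0.40, or 0.20 without genistein vehicle arrays 3 and 4. Of all genes 8.45% rose and 14.6% fell in controls, and 2.49% rose and 2.80% fell after genistein. These shares are also the background for the muscle and matrix counts below. Plvap, a diaphragm protein of vessels, fell alike at -1.17 and -1.12, whereas Egfl7, a vessel-secreted protein gene, fell by 1.00 in controls and changed by -0.13. Klf2, a flow-induced factor gene, fell by 0.76 in controls and changed by -0.01, but its second probe gave 0.93 and 1.13. The nitric oxide synthase gene Nos3 changed by -0.27 and 0.67. Of 22 smooth muscle genes 5 fell in controls, including the actin gene Actg2 at -1.07, while 17 were not called, and 0 were called after genistein, with a median interaction of 0.43 that was 0.11 without genistein vehicle arrays 3 and 4, 0.19 within slide 3 and -0.15 within slide 4. Of 35 collagen and matrix genes 6 rose and 4 fell in controls and 1 rose and 6 fell after genistein, with a median interaction of -0.32; the proteoglycan gene Lum fell alike at -0.93 and -0.97, Col14a1 rose by 0.68 and changed by -0.47, and Postn changed by 0.28 and fell by 0.69. Among proteases and inhibitors Mmp2, which cuts basement membrane, fell alike at -1.14 and -0.88, and Adamts4 changed by 0.21 and rose by 1.27 (interaction 1.06).

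Of 27 steroid receptor and steroid metabolism genes 4 rose and 8 fell in controls, against 8.45% and 14.6% of all genes, and 2 rose and 1 fell after genistein. Esr1 changed by -0.46 and -0.78 (interaction -0.32, -1.22 to 0.58) and Pgr by 0.05 and -0.24 (interaction -0.30, -1.24 to 0.65). A dimmer Esr1 probe gave -0.59 and -1.01, an interaction of -0.43. Its adjusted p was 0.0216 in controls and 0.00241 after genistein in a limma fit over single probes. The estrogen-induced lactoferrin gene Ltf, fitted on 15 arrays because genistein dexamethasone array 4 was flagged as an outlier, changed by 1.10 and -0.14 (interaction -1.24, -3.08 to 0.59). Of 34 estrogen-responsive genes 6 rose and 4 fell in controls and 4 rose and 0 fell after genistein. The shares over all genes were 8.45% and 14.6% in controls and 2.49% and 2.80% after genistein. The cornified protein gene Sprr2f changed by 0.39 and -1.58. The androgen-activating enzyme gene Srd5a1 rose by 0.77 in controls and changed by -0.58 (interaction -1.35, unadjusted p = 0.00162), and the receptor coactivator gene Ncoa2 rose by 0.50 and changed by -0.04, while its 2 other probes gave -0.62 and -0.70 in controls. Ovgp1, an oviduct glycoprotein gene, changed by -0.06 and rose by 1.72 (interaction 1.78). Basal squamous genes had a median interaction of -1.48 over 15 measured, or -0.04 with normexp background correction, with 7 negative and 2 positive at an unadjusted p below 0.05, and Trp63, their master factor, rose by 0.99 in controls and changed by -0.96.

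Of 34 oxidative phosphorylation genes 5 rose in controls and 0 were called after genistein, and 30 had an interaction interval within -1 to 1, against 38.7% of all genes. Of 28 DNA methylation and chromatin enzyme genes 3 rose and 5 fell in controls, against 8.45% and 14.6% of all genes, 0 were called after genistein and 20 had such an interval. Tet1, which oxidizes methylated cytosine, read -2.12, -2.35, -2.61 and -2.88 and then -3.72, -3.65, -3.63 and -3.68 in controls, against -2.69, -2.14, -2.64 and -2.67 and then -2.54, -2.66, -2.87 and -1.85 after genistein. The control dexamethasone arrays alone were low, and the interaction was 1.23 (0.58 to 1.89, unadjusted p = 0.00121). Mbd3, a reader of the remodelling complex, fell by 0.64 in controls and changed by 0.00. Among apoptosis genes Bcl2l1, a survival gene, rose by 2.02 and 1.11 (interaction -0.91), with other probes at 0.37 and -0.09, and the death gene Pmaip1 rose by 1.80 and changed by 0.74 (interaction -1.05). Of the remaining signals, the insulin kinase gene Akt2 fell by 1.07 and changed by -0.34, the BMP target gene Id3 changed by -0.49 and 0.36, the activation antigen gene Cd40 fell by 0.91 and changed by -0.37, and Fosl2, an AP-1 gene, rose in both arms by 0.95 and 0.46.

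Of the 24 named genes with the smallest interaction p-values, Pnpla2 was a member of the glucocorticoid-induced list and the other 23 were on none of the lists. Kcnn1, a calcium-gated potassium channel gene, read -3.18, -3.33, -3.24 and -3.37 and then -3.36, -3.48, -3.60 and -3.38 in controls, against -3.22, -3.08, -3.21 and -3.33 and then -2.49, -2.46, -2.48 and -2.49 after genistein. The genistein dexamethasone arrays lay close together and above all the others, and the interaction was 0.91 (0.60 to 1.22, unadjusted p = 1.98e-05, adjusted p = 0.162). Grasp, a scaffold gene for receptor trafficking, read 0.66, 0.20, 0.68 and 0.39 and then -0.18, 0.02, -0.24 and -0.16 in controls, against 0.03, 0.36, -0.03 and 0.12 and then 0.55, 0.59, 0.61 and 0.72 after genistein. It fell by 0.62 in controls and rose by 0.50 after genistein (interaction 1.12, 0.71 to 1.52). Nckipsd, an actin assembly gene, read -1.17, -1.49, -1.07 and -1.28 and then -1.63, -1.59, -1.78 and -1.56 in controls, against -1.40, -1.55, -1.64 and -1.54 and then -1.19, -1.13, -0.87 and -1.08 after genistein. It fell by 0.39 in controls and rose by 0.46 after genistein (interaction 0.85). Of 33 alternative settings, 13 lost the Nckipsd call in controls and 24 lost the one after genistein. For Grasp, 2 lost the call in controls and 21 lost the one after genistein.

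Others of the 24 smallest p-values had their larger change in controls. Ercc2, a DNA repair helicase gene, fell by 1.08 and changed by -0.02, Ranbp3, a nuclear export cofactor gene, fell by 0.76 and changed by 0.19, Tfeb, the lysosome regulator gene, fell by 0.96 and changed by -0.07, and Htr2b, a serotonin receptor gene, fell by 2.15 and changed by -0.72. A dimmer Htr2b probe was lower in both arms, with -2.43 in controls and -1.94 after genistein. Sult1c1, a sulfotransferase gene, fell by 1.71 and changed by 0.47, Ripor1 by 0.89 and 0.17, and Rps6kb2, an S6 kinase gene, by 1.01 and 0.20. Nppc, the natriuretic peptide gene, and Itpk1, an inositol kinase gene, instead changed by -0.68 and -0.27 in controls and rose by 1.18 and 0.65 after genistein, and Artn, a neurotrophic factor gene, fell by 1.44 and changed by 1.18. Nfasc, a neuronal adhesion gene, had the largest of these interactions at 3.27 (1.93 to 4.61), from -2.75, -4.37, -3.71 and -4.84 and then -6.24, -5.55, -5.90 and -7.23 in controls, and -4.16, -4.27, -4.92 and -4.93 and then -4.15, -3.66, -2.90 and -3.77 after genistein. Its other probes gave 0.29 and 0.76. Disagreement between probes also touched Nipal4 (1.70, other probe 0.71), Acin1 (0.88, others 0.22 and 0.23), Zfp781 (-1.25, other 0.44), Pgm3 (-0.91, other 0.55) and Htr2b (1.44, other 0.50). Mypn, Gip, Tctex1d4 and Ndst3 were not well above background on any control dexamethasone array and were there at least 2.20-fold, 2.01-fold, 2.38-fold and 1.87-fold lower than under control vehicle, and Unc13c was not well above background on any genistein dexamethasone array, at least 2.92-fold lower than in control dexamethasone arrays. These bounds set the group mean against the lowest signal that counted as well above background on each array.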

How the data were processed

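Uterine RNA was hybridised to 16 Agilent arrays of 1 colour. Per the file headers, the deposited values are linear spot intensity from Feature Extraction 12.0.0.7 with background subtracted and no scaling across arrays; version 9.5 is the one in the submitters' processing notes. Flags per the file headers are 0 or 1. Values were log2 of processed signal minus each array's 75th percentile; outlier spots were dropped, probes of a spot set averaged, and 807 probes with a missing value left out. A probe was kept when well above background, in at least 50% of its spots, on at least 4 arrays. A looser rule, any spot, was run first; the rule used was taken because it matched the number of kept probes of earlier processing, and the looser one is listed as an added alternative. The brightest kept probe stood for a gene, and symbols came from RefSeq (28223 of 29245 RefSeq probes matched, GRCm38.p6). A model with 4 group means was fitted in limma 3.58.1 (R 4.3.3, data.table version 1.17.8), two-sided, with Benjamini-Hochberg adjustment over 24651 tests per comparison; the procedure was tested on simulated data. Figures used matplotlib 3.10.9 and pandas 2.3.3 in Python 3.11.15. Slides were read from array names.

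Members, gene lists, alternatives and the pairs of arrays left out were chosen with earlier results of these data known. Named genes are a selection from a rule: the 24 smallest interaction p-values, the 6 largest shared rises and falls, up to 2 members per list by interaction p and 2 that respond alike, and 12 always included. A further 34 genes (for example Klf9, Gli1, Cd8a and Adipoq) and the genes shown array by array were chosen after their values were seen. The promoter element search covered 1 element; the windows printed were chosen after it was found in 0 genes that respond alike. Replicate numbers did not pair the arrays: correlations of same-numbered arrays' deviations ran from -0.37 to 0.38, and 5 of 16 arrays correlated best with their own number.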

Additional observations from a re-analysis of the deposited data

Results flagged for a closer look

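An array was marked where it lay far from the other 3 of its group, its gap to the nearest, as a share of the group's range, being above Dixon's 95% critical value. Over the 23 genes shown array by array and 3 list means, 8 of 104 groups (7.69%) met this, where chance gives about 5%. They were Tsc22d3 on control dexamethasone array 2 (5.54, nearest other 5.00), Igf1 on genistein dexamethasone array 4 (3.49, nearest 3.11), Cxcl16 on control dexamethasone array 1 (-0.72, nearest -0.44), Ptch1 on genistein dexamethasone array 2 (-4.41, nearest -4.81) and Tet1 on genistein vehicle array 2 (-2.14, nearest -2.64). The adipocyte list mean was low on genistein dexamethasone array 1 (-0.34, nearest 1.20), and the lymphocyte list mean was low on control dexamethasone array 3 (-4.32, nearest -3.82) and on genistein dexamethasone array 4 (-3.53, nearest -3.11).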

How the results depend on the processing

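Of 33 alternative settings, 32 planned and 1 added after seeing the data, 29 gave 0 interaction calls. Array weights gave 96, and without genistein vehicle arrays 3 and 4, without genistein vehicle array 3 and without genistein dexamethasone array 3 there was 1 each, Unc13c, Unc13c and Gip. Of 139 named genes 101 kept the sign of their interaction throughout. Median interactions of 15 of 37 lists kept their sign.

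Dexamethasone calls in controls were 3326 with normexp, 5 on only the slides that hold all 4 groups and 3585 without control dexamethasone arrays 2 and 3. After genistein they were 370 with normexp, 831 with slide as a fixed block, 3 on full slides, 6065 with array weights and 2046 at an adjusted p below 0.1. Shared calls were 235, 556, 3, 2843 and 1321 in those 5 settings, and genes that respond alike 126, 283, 1, 2000 and 818. Genistein under dexamethasone gave 3297 with normexp, 1409 on full slides, 11033 with array weights and 2394 without control dexamethasone arrays 2 and 3. The 1 call under vehicle became 2 with array weights and 0 with quantile normalization, median scaling, normexp, no filter, slide as a fixed block, full slides, the variance trend and either pair of arrays left out. Opposite calls, 2 in the report, were 57 with array weights, 8 at adjusted p below 0.1, 1 with quantile normalization and the variance trend, and 0 with median scaling, no filter, full slides, at least 1.5-fold and without control dexamethasone arrays 2 and 3. With the replicate block the interaction gave 0 calls, genistein under vehicle 0 and opposite calls 1; no other count moved by over 1.5 times.

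Leaving out 1 array at a time gave 0 to 1 interaction calls, 3107 to 5883 in controls, 719 to 1230 after genistein, 0 to 2 and 3293 to 5972 for genistein under vehicle and dexamethasone, 297 to 490 alike, 547 to 807 shared and 0 to 5 opposite. The lowest counts came without control vehicle array 1 (3107 in controls) and without genistein dexamethasone array 3 (719, 297 and 547); without control dexamethasone array 4 the controls gave 3565, and without genistein vehicle array 1 or genistein dexamethasone array 2 the genistein arm gave 862 and 835.

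Directions turned with normexp for Unc13c (-0.78) and Ccne2 (-0.38) in controls and for Scimp (0.50) and Tnf (0.36) after genistein, and with the mean of the probes for Ncoa2 (-0.28), Per2 (-0.37) and Klf2 (0.0835) in controls and Klf2 (0.56) after genistein. Normexp moved the median interaction to 0.64 and put 45.9% of genes at an unadjusted p below 0.05; on full slides it was 5.46%. Median scaling moved it to -0.06 and made 64.8% of control calls rises. The cause was not tested. Dim genes have signal near background, and 4 arrays a group limit the precision.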
